A study of Mus musculus with 4 samples.

Results

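A set of 10 genes that mark or specify the projection neurons of the deep cortical layers was followed in the telencephalon, the embryonic forebrain, of mouse embryos at embryonic day 14. They were taken by symbol and were Fezf2, Bcl11b, Tbr1, Sox5, Tle4, Ldb2, Zfpm2, Foxp2, Etv1 and Crym, which is 10 of the 48795 genes in the deposited table. All 10 passed the filter on low counts, among 22158 tested genes. RNA sequencing compared 2 Ctcf-null libraries with 2 control libraries, which the series describes as 2 pairs. The Ctcf-null embryos carried the genotype Ctcf floxed; NestinCre, in which Cre recombinase driven by Nestin sequences acts in neural progenitor cells and their offspring. The controls carried Ctcf floxed without NestinCre, so loss of Ctcf and the presence of Cre cannot be told apart. Both groups were C57BL/6 and carried the floxed allele, whose copy number the labels do not give. The dissected tissue was labelled as telencephalon, which holds the cortex together with the ganglionic eminences, vessels, blood and choroid plexus. The labels do not state how a pair was formed or whether each library is its own embryo, so the spread behind the p-values could be technical.

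Deep-layer neurons are the first projection neurons that the cortex makes, and at this stage many are newly born. In mouse, Fezf2 and Bcl11b direct the subcerebral fate of layer 5, whose axons reach the brainstem and spinal cord. Tbr1 directs the corticothalamic fate of layer 6 and represses Fezf2 and Bcl11b there, and Sox5 sets the timing of both fates. CTCF is a zinc finger protein that, together with cohesin, shapes chromatin into loops and insulated domains.

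Values below are the authors' normalized read counts, scaled between libraries but not divided by gene length. Ctcf itself, the check of the labels, had 38.9 and 62.0 normalized read counts in Ctcf-null 1 and Ctcf-null 2, against 437 and 1133 in control 1 and control 2, and was 14.1-fold lower in the Ctcf-null libraries (log2 fold change -3.81, SE 0.16, limma adjusted p 3.34e-12). The libraries held 25519331 to 43812558 reads recovered from the deposited values. Of the 9 telencephalon markers looked up, such as Emx1, none was at 0 in any library, 6 fell and 0 rose. Over all tested genes 10.1% fell and 3.67% rose. The libraries of pair 1 stood apart from those of pair 2. In pair 1 the top 10 genes held 21.9% of the reads of Ctcf-null 1 and 26.0% of those of control 1, and in pair 2 they held 8.37% in Ctcf-null 2 and 8.82% in control 2. Libraries of the same pair correlated at r = 0.987 and 0.984 across genes, and libraries of different pairs at 0.887 to 0.903, where genes are not independent replicates. For that reason the values of the 10 genes are given per library or within each pair. Many other genes are given as 1 fitted log2 fold change, which can hide a difference between the pairs. Dlx2, for example, was at -0.41 in pair 1 and -1.80 in pair 2.

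The promoters of Bcl11b and Fezf2 are shown because these were the fate factors that fell. Each covers 250 bases before to 50 bases after the RefSeq start on the minus strand of GRCm38.p6, at chr12:108003365-108003664 and chr14:12345816-12346115. They are written 5′ to 3′ along the gene, with every CpG dinucleotide in capitals. The Fezf2 window lies inside the GENCODE M21 span of the gene given below (chr14:12342094-12348189), so the RefSeq start used here is not the GENCODE start. The same holds for other windows of the motif search, those of Sox5 (chr6:143947057-143947356), Tbr1 (chr2:61804203-61804502) and Etv1 (chr12:38779832-38780131 and chr12:38783461-38783760). It also holds for the Tle4 window at chr19:14597164-14597463. The Tle4 window at chr19:14598134-14598433 lies wholly outside the span of its gene. The Bcl11b window spans the GENCODE start at 108003602, but its RefSeq start is not at that base.
Bcl11b promoter: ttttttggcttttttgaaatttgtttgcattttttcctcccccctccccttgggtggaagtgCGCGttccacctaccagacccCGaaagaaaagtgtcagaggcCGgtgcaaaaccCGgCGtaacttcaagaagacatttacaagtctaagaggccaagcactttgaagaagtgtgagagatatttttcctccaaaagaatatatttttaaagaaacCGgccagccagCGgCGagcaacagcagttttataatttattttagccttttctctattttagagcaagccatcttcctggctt
Fezf2 promoter: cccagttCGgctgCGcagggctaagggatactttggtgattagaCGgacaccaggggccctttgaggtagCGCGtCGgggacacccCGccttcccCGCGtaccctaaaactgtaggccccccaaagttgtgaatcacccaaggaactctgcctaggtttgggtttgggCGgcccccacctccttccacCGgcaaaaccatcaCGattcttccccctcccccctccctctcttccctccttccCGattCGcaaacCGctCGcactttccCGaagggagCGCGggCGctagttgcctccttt
The Bcl11b window holds 9 CpG dinucleotides and the Fezf2 window 20, against a median of 7 over 32851 RefSeq promoter windows of the same length. At most 9 CpG were present in 56.5% of those windows, and at most 20 in 75.2%. The CTCF core motif, 12 bases with 4 free positions, was searched on both strands, and no other motif was searched. It occurred in 0 of the 8 windows that RefSeq gives for 6 of the genes (Bcl11b, Fezf2, Tbr1, Sox5, Tle4 and Etv1), against 2.43% of all windows. These letters are therefore not in these windows, which does not bear on whether CTCF binds near the genes.

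Among the 10 genes, Bcl11b, Fezf2, Etv1 and Ldb2 fell in the Ctcf-null telencephalon, Crym rose, and Tbr1, Sox5, Tle4, Zfpm2 and Foxp2 did not pass the test. The 5 called genes are set against 13.7% of all 22158 tested genes, the 4 that fell against 10.1% and the 1 that rose against 3.67%. The test was limma's moderated test on log2(normalized count + 1) with the pair as a block, two-sided, with Benjamini-Hochberg adjustment over all tested genes and a threshold of 0.05. The median log2 fold change was -0.16 over the 10 genes and -0.07 over all tested genes. In 9 of the 10 genes both pairs changed in the same direction, which 67.4% of all tested genes did. The normalized counts of the Ctcf-null and control groups did not overlap for 3 of the genes (Bcl11b, Ldb2 and Etv1), against 14.1% of all tested genes. With the same block, edgeR on whole reads recovered from the values called 4 of the 10 (the 5 above without Ldb2), against 11.9% of the tested genes, and DESeq2 called 3 (Bcl11b, Fezf2 and Crym), against 4.89% of those it adjusted. Without the pair as a block, limma called 0 genes of the table and the adjusted p of all 10 was 1.00. At an unadjusted p under 0.05 there were then 170 genes and none of the 10, and edgeR without the block likewise called 0, with 174 genes at an unadjusted p under 0.05. With 2 against 2 libraries an exact permutation test of a gene cannot go below p = 0.33.

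**Figure D1:**
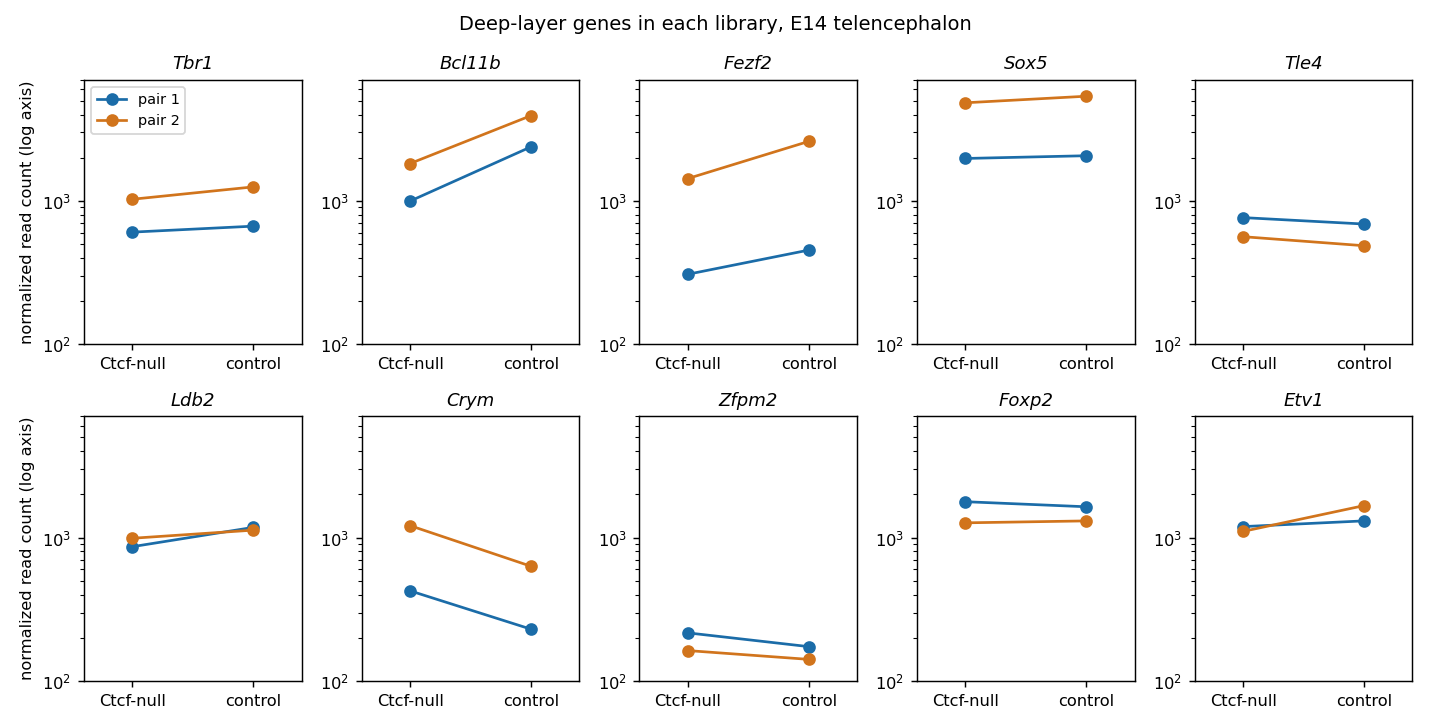
Normalized read counts (log axis) of the 10 deep-layer genes in the 2 Ctcf-null and 2 control libraries, 1 panel per gene, with lines joining the libraries of a pair. Both lines run higher on the control side for Bcl11b and Fezf2 and lower on the control side for Crym, while the offset between the lines is the difference between the pairs.

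Bcl11b (Ctip2, a zinc finger factor needed for subcerebral axon growth) changed most of the 10. It had 997 and 1822 normalized counts in Ctcf-null 1 and 2, against 2384 and 3935 in control 1 and 2. Both Ctcf-null libraries lay below both controls. The level was 2.27-fold lower in the Ctcf-null libraries, with log2 fold changes of -1.26 in pair 1 and -1.11 in pair 2 (fitted log2 fold change -1.18, SE 0.07, 95% interval -1.34 to -1.03, limma adjusted p 9.34e-10). In the ranking of all tested genes by fitted fold change, Bcl11b was number 229 from the lowest. The gene lies on the minus strand at chr12:107910403-108003602 (mm10). In whole tissue, fewer cells that express a gene and less RNA per cell cannot be told apart.

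Fezf2, a zinc finger repressor at the head of the subcerebral programme, lies on the minus strand at chr14:12342094-12348189. It had 308 and 1431 normalized counts in Ctcf-null 1 and 2, against 454 and 2600.4 in control 1 and 2. Each Ctcf-null library was below the control of its pair, but the groups overlapped, and the pairs differed far more than the genotypes did. Fezf2 was 1.64-fold lower (fitted log2 fold change -0.71, SE 0.09, 95% interval -0.91 to -0.51, limma adjusted p 2.7e-05), with -0.56 in pair 1 and -0.86 in pair 2. Its interval and that of Bcl11b did not overlap, and the difference between the 2 genes was not tested.

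Tbr1, the T-box factor of layer 6, is on the plus strand at chr2:61802930-61814114. It had 605 and 1027 normalized counts in Ctcf-null 1 and 2, against 666 and 1252 in control 1 and 2. Each Ctcf-null value was below its own control by a small margin, and the groups overlapped. The fitted log2 fold change of -0.21 (SE 0.09, 95% interval -0.40 to -0.03) missed the threshold, with a limma adjusted p of 0.127. Sox5, the SoxD factor at chr6:143828425-144781977 on the minus strand, had 1976 and 4834 normalized counts in Ctcf-null 1 and 2, against 2065 and 5372 in control 1 and 2. Its log2 fold change was -0.11 with a 95% interval of -0.25 to 0.04 (limma adjusted p 0.340). That interval leaves out a fall of the size measured for Bcl11b or Fezf2. Sox5 overlaps 7 other annotated genes, 5 of them on the other strand, and the highest of these reached 19.6 normalized counts in any library.

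Among the cofactors, Ldb2, an adaptor for LIM-domain transcription factors, had 864 and 989 normalized counts in Ctcf-null 1 and 2, against 1179 and 1127 in control 1 and 2. Both Ctcf-null libraries were below both controls, by a small margin. The log2 fold change was -0.45 in pair 1 and -0.19 in pair 2, and the fitted value was -0.32 (SE 0.09, limma adjusted p 0.021). This call was lost in edgeR's quasi-likelihood test with the same block (log2 fold change -0.27, adjusted p 0.0512). Ldb2 (chr5:44472132-44799680, minus strand) overlaps 11 other annotated genes, the highest at 43.1 normalized counts.

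Tle4, a Groucho corepressor that marks corticothalamic neurons, had 764 and 562 normalized counts in Ctcf-null 1 and 2, against 689 and 487 in control 1 and 2. Both Ctcf-null libraries were slightly above the control of their pair, and the log2 fold change of 0.18 (95% interval -0.02 to 0.38, limma adjusted p 0.240) did not pass. Zfpm2 (Fog2), a zinc finger cofactor of GATA proteins that is also used as a corticothalamic marker, was the least abundant of the 10 and the one measured with the widest error. It had 216 and 163 normalized counts in Ctcf-null 1 and 2, against 173 and 141 in control 1 and 2, with a log2 fold change of 0.26 (SE 0.15, 95% interval -0.04 to 0.56, limma adjusted p 0.265). The lowest read count of any of the 10 genes was its 113 reads in control 2. Tle4 lies at chr19:14448150-14598051 (minus strand) and Zfpm2 at chr15:40655035-41104592 (plus strand).

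Crym, which encodes the thyroid hormone-binding protein mu-crystallin and is used as a marker of subcerebral neurons, moved opposite to Bcl11b and Fezf2. It had 425 and 1211 normalized counts in Ctcf-null 1 and 2, against 229 and 630.4 in control 1 and 2. Each Ctcf-null library was well above the control of its pair, although Ctcf-null 1 was below control 2. Crym was 1.88-fold higher (log2 fold change 0.91, SE 0.10, 95% interval 0.70 to 1.12, limma adjusted p 2.2e-06), with 0.89 in pair 1 and 0.94 in pair 2. It ranked number 563 from the highest among all tested genes and lies at chr7:120186380-120202111 on the minus strand.

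Etv1 (Er81), an ETS factor used as a layer 5 marker, had 1193 and 1104 normalized counts in Ctcf-null 1 and 2, against 1307 and 1671 in control 1 and 2. Both Ctcf-null libraries were below both controls, and pair 2 held most of the difference. The log2 fold change was -0.13 in pair 1, with a 95% counting interval of -0.23 to -0.03, and -0.60 in pair 2, with a counting interval of -0.72 to -0.47. These exact Clopper-Pearson intervals cover counting error only, and no molecular identifiers are named in the labels. The fitted log2 fold change was -0.36 (SE 0.10, limma adjusted p 0.0144), and DESeq2 with the same block gave an adjusted p of 0.247. Foxp2, a forkhead factor of layer 6 that striatal neurons also express, had 1779 and 1267 normalized counts in Ctcf-null 1 and 2, against 1640.1 and 1307 in control 1 and 2. It was the 1 gene whose pairs differed in direction, and its log2 fold change of 0.04 had a 95% interval of -0.13 to 0.20 (limma adjusted p 0.825). Etv1 lies at chr12:38779380-38870484 and Foxp2 at chr6:14901349-15441977, both on the plus strand.

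**Figure D2:**
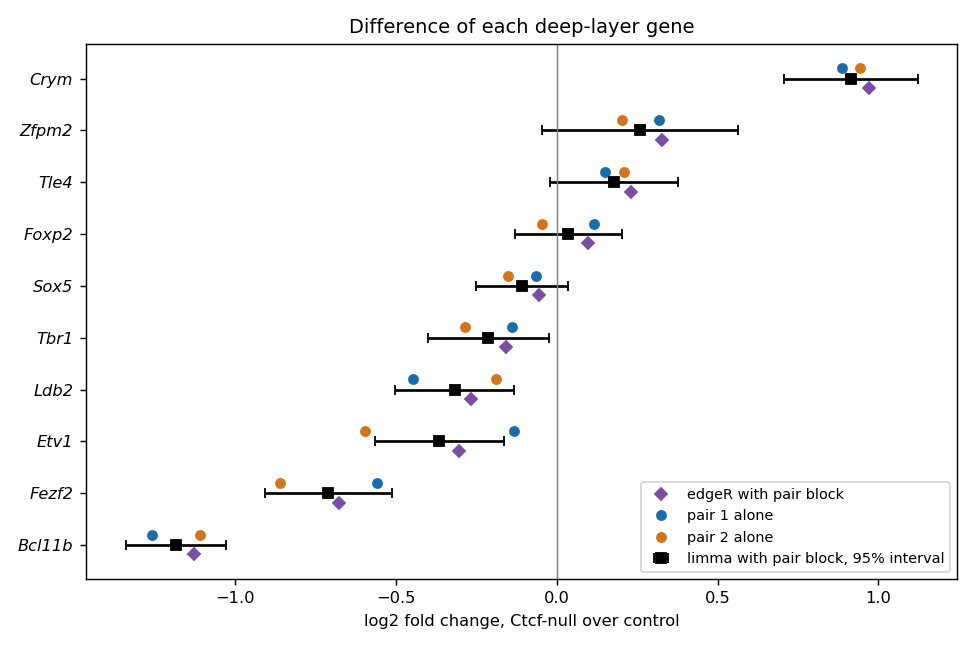
Log2 fold change of each deep-layer gene, Ctcf-null over control. On the log2(normalized count + 1) scale, coloured circles show pair 1 and pair 2, and a black square with its 95% interval shows the limma fit with the pair as a block. Diamonds show edgeR on the recovered reads with the same block. The intervals of Bcl11b, Fezf2, Ldb2, Etv1 and the uncalled Tbr1 lie wholly below 0 and that of Crym wholly above it. The intervals of Sox5, Tle4, Zfpm2 and Foxp2 include 0.

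Differences between the pairs were larger than the fitted genotype difference, in both genotypes, for Tbr1, Fezf2, Sox5, Tle4, Crym, Zfpm2 and Foxp2. They were smaller for Bcl11b, Ldb2 and Etv1. Fezf2 was higher in pair 2 by 2.21 on the log2 scale in the Ctcf-null libraries and by 2.52 in the controls. For Crym these pair differences were 1.51 and 1.45, for Sox5 1.29 and 1.38, and for Tbr1 0.76 and 0.91. Tle4, Zfpm2 and Foxp2 were instead lower in pair 2, in both genotypes, by 0.29 to 0.50 on the log2 scale. In the controls the median absolute pair difference was 0.61 over the 10 genes and 0.87 over all tested genes.

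Levels of different genes were compared per kb of exon, the normalized count divided by the summed exon length in GENCODE M21. On that scale Ldb2 was the highest of the 10 in pair 1, at 259 in Ctcf-null 1 and 353 in control 1. Fezf2 was the highest in pair 2, at 470 in Ctcf-null 2 and 853 in control 2. Bcl11b was the fifth of the 10 in both Ctcf-null libraries, at 123 and 225 per kb, and the second in both controls, at 294 and 485 per kb. Crym held the fourth place in Ctcf-null 1 and the second in Ctcf-null 2, against the ninth in control 1 and the sixth in control 2. Tle4, Foxp2 and Etv1 stood close together at 77.5 to 134 per kb in the Ctcf-null libraries and at 80.0 to 126 per kb in the controls, and their order changed between libraries. Zfpm2 was the lowest in every library, at 22.7 and 17.1 per kb in Ctcf-null 1 and 2 and 18.2 and 14.8 per kb in control 1 and 2.

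Ratios within a library do not depend on the scaling between libraries. Per kb, Bcl11b stood to Tbr1 as 1.11 and 1.20 in Ctcf-null 1 and 2, against 2.42 and 2.13 in control 1 and 2. This ratio differed little between the pairs and did not overlap between the groups. The ratio of Fezf2 to Tbr1 was 0.915 and 2.51 in Ctcf-null 1 and 2, against 1.23 and 3.74 in control 1 and 2, so it was lower within each pair and far apart between pairs. Crym stood to Tbr1 as 1.14 and 1.91 in Ctcf-null 1 and 2, against 0.557 and 0.815 in control 1 and 2. The largest shift of the ratios computed was that of Crym to Bcl11b, at 1.02 and 1.59 in Ctcf-null 1 and 2, against 0.230 and 0.383 in control 1 and 2. It was 4.43 times higher in the Ctcf-null library of pair 1 and 4.15 times higher in that of pair 2. These ratios are a description with no test of their own.

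**Figure D3:**
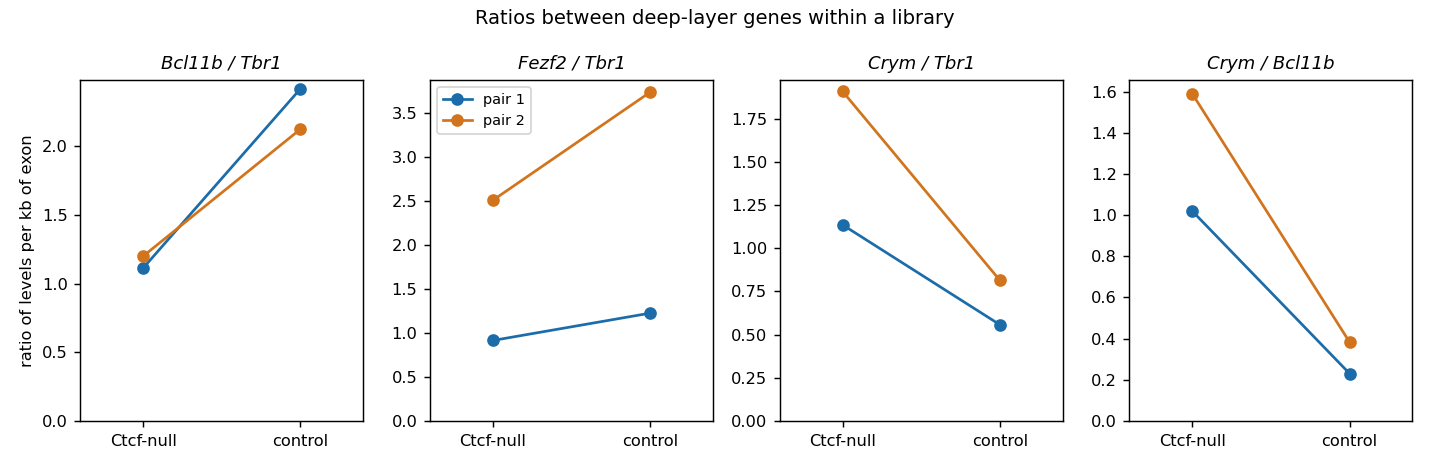
Ratios between deep-layer genes within each library, as levels per kb of exon, for the Ctcf-null and control library of each pair, on axes that start at 0. Bcl11b to Tbr1 is lower in both Ctcf-null libraries (1.11 and 1.20) than in the controls (2.42 and 2.13), and Crym to Bcl11b is higher in both Ctcf-null libraries.

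Other markers of deep-layer and subplate neurons moved in both directions as the 10 genes did. Of 21 such markers, 20 were tested, 2 rose, 4 fell and 14 were not called, with a median log2 fold change of -0.01 in limma and 0.05 in edgeR. Over all tested genes 3.67% rose and 10.1% fell, which is the comparison for this list and every list below. Pcp4, a calmodulin-binding peptide of layer 5 and 6 neurons, had 1345 and 3448 normalized counts in Ctcf-null 1 and 2, against 402 and 1117 in control 1 and 2 (log2 fold change 1.68, limma adjusted p 1.79e-11). Ctgf, a secreted matrix protein and layer 6b marker, also rose (log2 fold change 1.07, adjusted p 0.024) at low levels of 16.3 and 98.4 normalized counts in Ctcf-null 1 and 2, against 8.0 and 42.5 in control 1 and 2. Igfbp4, an insulin-like growth factor-binding protein, fell by 0.72 on the log2 scale (adjusted p 3.27e-05), and Nxph4, a secreted neurexophilin of the subplate, fell by 0.84 (adjusted p 0.0046).

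Genes that others have placed downstream of Tbr1 or Fezf2 in mouse cortex were few and mixed. Of 8 tested, 2 rose and 1 fell. Ephb1, an axon guidance receptor placed downstream of Fezf2, had 554 and 476 normalized counts in Ctcf-null 1 and 2, against 838 and 874 in control 1 and 2 (log2 fold change -0.74, limma adjusted p 3.07e-05). Both Ctcf-null libraries were below both controls. Grin2b, an NMDA receptor subunit placed downstream of Tbr1, rose by 0.43 on the log2 scale (adjusted p 0.0015), and Reln, a secreted glycoprotein of Cajal-Retzius cells and early deep-layer neurons, rose by 0.26 (adjusted p 0.044).

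Close relatives of the 10 genes did not always move with them. Of 16 paralogs in the table, 14 were tested, 1 rose and 4 fell, with a median log2 fold change of -0.24. Bcl11a, the paralog of Bcl11b, had 3738 and 6941 normalized counts in Ctcf-null 1 and 2, against 2819 and 6256 in control 1 and 2 (log2 fold change 0.28, limma adjusted p 0.0127). It therefore rose where Bcl11b fell. Foxp1, Aes, Sox6 and Eomes fell, with log2 fold changes of -0.41, -0.40, -0.30 and -0.29. The adjusted p of Eomes was 0.042 in limma and 0.118 in edgeR. The remaining 9 (Fezf1, Sox13, Tle1, Tle2, Tle3, Ldb1, Foxp4, Etv4 and Etv5) were not called, with log2 fold changes between -0.46 and 0.55. Fezf1, the paralog of Fezf2, was at 33.9 and 278 normalized counts in Ctcf-null 1 and 2, against 16.9 and 254 in control 1 and 2.

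Upper-layer and callosal genes gave 1 rise and 5 falls among 15 tested, with a median log2 fold change of -0.17. Those with the largest changes were Inhba, an activin subunit (-1.61, limma adjusted p 3.87e-04), the netrin receptor Unc5d (0.57, adjusted p 4.31e-04), and the transcription factors Pou3f1 (-0.50, adjusted p 0.0423) and Cux1 (-0.38, adjusted p 8.7e-04). Other factors of cortical neurogenesis had 0 rises and 10 falls among 14 tested, led by the proneural genes Neurog1 (-1.89), Neurod1 (-1.67) and Neurog2 (-0.68) and the LIM factor Lhx2 (-0.65). Neurog1 was near the floor (SE 0.42). It had 1.41 and 19.4 normalized counts in Ctcf-null 1 and 2, against 6.23 and 92.6 in control 1 and 2. Of 10 markers of intermediate progenitors, the dividing precursors of projection neurons, 7 fell and 0 rose, with Neurog1 and Neurog2 counted in both lists. The part of these markers in the fall of Bcl11b and Fezf2 was not tested.

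Bcl11b is also strongly expressed by striatal projection neurons, Foxp2 by some of them, and the dissected tissue holds the striatum. Of 18 striatal and lateral eminence markers, 6 fell and 0 rose, with a median log2 fold change of -0.38. The 12 that were not called include Drd2, Adora2a and Penk. Tac1, the substance P precursor, fell by 1.57 on the log2 scale (limma adjusted p 6.13e-09), Drd1, the dopamine D1 receptor, by 1.31 (adjusted p 4.71e-05), and the transcription factor Isl1 by 0.71 (adjusted p 7.93e-06). The summed level of the list was 8420.2 and 11997 normalized counts in Ctcf-null 1 and 2, against 10308 and 16374 in control 1 and 2. None of its genes was at 0 in any library. The uncalled Meis2 made up 3761 and 4532 of that sum in Ctcf-null 1 and 2, and 3963 and 5154 in control 1 and 2. The values of all genes summed to 30980162 and 31003036 in Ctcf-null 1 and 2, against 36729216 and 34545992 in control 1 and 2. That total is the comparison for this sum and for those of the lists below. The part of these markers in the fall of Bcl11b was not tested.

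Counts for markers of other cells stand beside 3.67% of all tested genes that rose and 10.1% that fell. Of 15 markers of the ventral telencephalon and interneurons, 8 fell and 0 rose, including Sst (-3.17), Npy (-2.10), Lhx6 (-1.26) and Dlx2 (-1.10), and their summed level was 4559 and 12442 normalized counts in Ctcf-null 1 and 2, against 7451 and 26220.2 in control 1 and 2. General neuron markers had 2 rises and 3 falls among 14. Tubb3, Elavl4 and Gap43 fell by 0.52, 0.48 and 0.45 on the log2 scale, and Nefm rose by 0.36. Their summed level was 253080 and 228785 in Ctcf-null 1 and 2, against 339036 and 278570 in control 1 and 2. Tubb3 alone made up 151648 and 114977 of that sum in Ctcf-null 1 and 2, and 237902 and 150029 in control 1 and 2. The median log2 fold change of the list was -0.05. Of the choroid plexus markers 3 of 9 rose, with a summed level of 97253 and 36956 in Ctcf-null 1 and 2 against 74347 and 25701 in control 1 and 2. Nearly all of that sum was Ttr, at 94451.8 and 34807.7 in Ctcf-null 1 and 2 and 72063.5 and 23920 in control 1 and 2. Of the microglia markers 2 of 10 rose. The log2 fold changes of that list ran from 0.08 to 0.80, with a median of 0.30. The erythroid markers, with 0 of 9 called, summed to 924953 and 626875 in Ctcf-null 1 and 2, against 1344470 and 576123 in control 1 and 2. Apical progenitor markers had 1 rise and 2 falls among 11 tested, Cajal-Retzius markers 1 and 1 among 10, and mitochondrial mRNAs 5 and 2 among 10. Endothelial and pericyte markers had 0 and 2 among 10, meningeal and fibroblast markers 1 and 0 among 9, and markers of the thalamus and hypothalamus, which flank the telencephalon, 0 and 2 among 8. The median log2 fold change of the thalamus and hypothalamus list was nevertheless 0.23, and edgeR called 1 rise and 2 falls in it. The part of these markers in the deep-layer values was not tested.

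**Figure D4:**
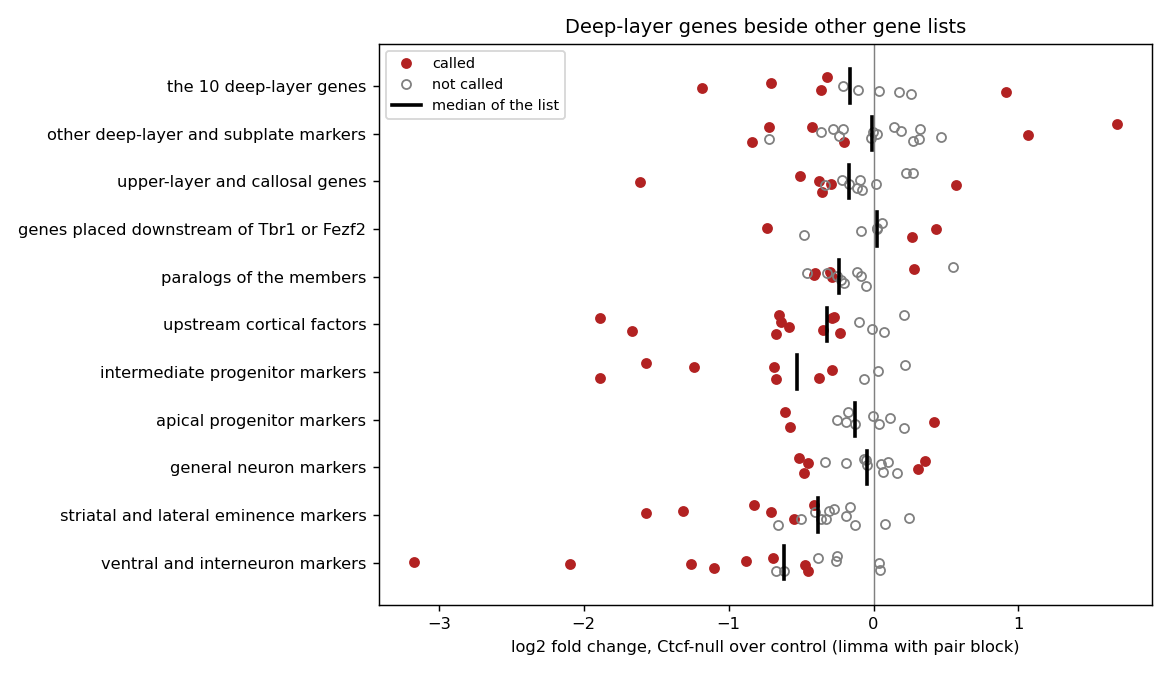
Log2 fold change of every tested gene in the deep-layer list and in other gene lists, Ctcf-null over control, from the limma fit with the pair as a block, with called and uncalled genes in different colours and the median of each list as a bar. Deep-layer genes spread on both sides of 0 from -1.18 to 0.91, while the ventral and interneuron markers reach -3.17.

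The nearest tested genes on the chromosome were read out on both sides of each deep-layer gene, 2 per side and 40 in all. Of these, 7 rose, 2 fell and 31 were not called, with a median log2 fold change of 0.18, beside -0.07 over all tested genes. Over all tested genes 3.67% rose and 10.1% fell, a split of directions that depended on the scaling. Setd3, which encodes the actin histidine methyltransferase and lies 103 kb from Bcl11b on its promoter side (the gap between the 2 genes), had 2068 and 3511 normalized counts in Ctcf-null 1 and 2, against 919 and 1915 in control 1 and 2. Setd3 was higher in the Ctcf-null library of each pair (log2 fold change 1.02, limma adjusted p 2.78e-08), while Bcl11b was lower. Gm16087, the second tested gene on the other side of Bcl11b with a gap of 954 kb, also rose (0.93, adjusted p 0.0452), at 63.2 normalized counts or less in every library.

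Cadps, a secretory vesicle priming factor with a gap of 24.4 kb to Fezf2, rose by 0.47 on the log2 scale (limma adjusted p 6.84e-04), again opposite to its neighbour. Next to Crym, Tmem159, a lipid droplet protein with a gap of 65.4 kb, had 356 and 559 normalized counts in Ctcf-null 1 and 2, against 112 and 186 in control 1 and 2. Both Ctcf-null libraries were above both controls, and Tmem159 rose together with Crym (log2 fold change 1.62, adjusted p 1.99e-08). Bcat1, an aminotransferase of branched-chain amino acids, and Etnk1, an ethanolamine kinase, rose on either side of Sox5 by 0.59 and 0.37 on the log2 scale, and Tank, a regulator of NF-kappaB signalling, rose by 0.28 near Tbr1. These lie beside genes that were not called. The 2 neighbours that fell were 2610001J05Rik, 1030 kb from Foxp2 (-0.51, adjusted p 7.34e-05), and Psat1, a serine synthesis enzyme 1307 kb from Tle4 (-0.28, adjusted p 0.0068).

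**Figure D5:**
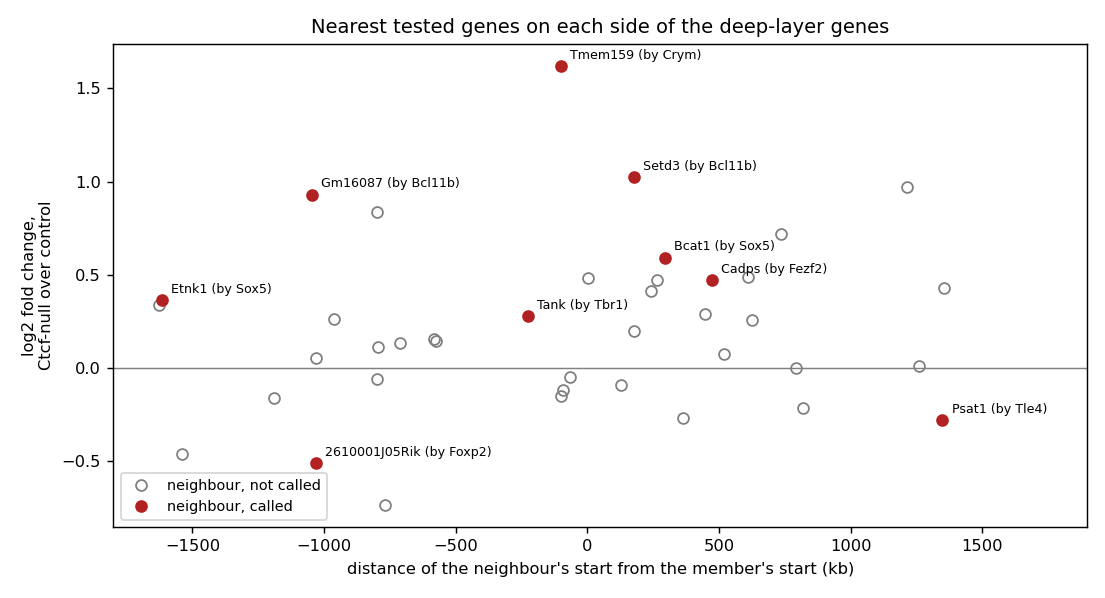
Log2 fold change, Ctcf-null over control, of the 2 nearest tested genes on each side of each deep-layer gene, against the distance between the start sites in kb along the chromosome's coordinates. Setd3 beside Bcl11b (1.02) and Tmem159 beside Crym (1.62) were the highest of the 40 neighbours.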

How the data were processed

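The authors deposited 1 table of 48795 genes, whose values per library are, per the file headers, normalized read counts, a signal not divided by gene length, beside log2 fold changes per pair. The submitters' processing notes name STAR 2.5.3, DESeq2 and mm10. Which gene counter, annotation and strand setting were applied was not given in the sources used here. A Clontech Smart kit, per the labels' protocols, made the cDNA after storage in RNAlater. In each library every value was a whole multiple of the value of 1 read (0.707, 1.21, 0.889 and 1.25 in Ctcf-null 1 and 2 and control 1 and 2), with 100% of values whole within 0.006, so whole reads were recovered as deposited divided by that step. The depth was 43812558 and 25519331 reads in Ctcf-null 1 and 2 and 41294659 and 27619441 in control 1 and 2.

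Because the deposited values are normalized, limma 3.58.1 (R 4.3.3) with a mean-variance trend was fitted to log2(normalized count + 1), a scale that understates changes of low genes, with the pair as a block. The 22158 genes left by edgeR's filterByExpr were tested, and p-values were adjusted by Benjamini-Hochberg over all of them. The series' text speaks of pairs, and deviations from the group means of same-numbered libraries correlated at r = 0.923 across genes. Alternatives, all planned, were edgeR 4.0.16 (quasi-likelihood, TMM) and DESeq2 1.42.0 on the recovered reads, fits without the block, other scalings, pseudocounts and filters, and leaving out each library. With edgeR the test called 2643 genes (11.9%) against 3041 (13.7%) in limma, and rises made up 40.2% of the edgeR calls and 26.7% of the limma calls. Scripts were tested on simulated data.

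Gene positions and exon lengths are from GENCODE M21 on the same assembly, to which 48435 identifiers matched without their version, and promoters are from RefSeq. No table of protein sequences was used. The 10 genes and all lists were chosen with earlier results of these data known, so no list has a test or a p adjusted over itself. From each other list at most 4 called genes with the largest changes are named, with tested paralogs and called neighbours. Some genes that this rule would name are not reported here.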

Additional observations from a re-analysis of the deposited data

How the results depend on the processing

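The pairing decides the calls. With the replicate block, 3041 genes, 5 of the 10 deep-layer genes and 74 genes of the marker lists passed in limma, and without the block these counts were 0, 0 and 0, with 170 genes and none of the 10 at an unadjusted p under 0.05. In edgeR without the block they were likewise 0, 0 and 0, with 174 genes at an unadjusted p under 0.05. Leaving out 1 library at a time, which ends its pair and so needs the fit without the block, gave 0 to 2 genes, 0 to 0 deep-layer genes and 0 to 0 list genes. The groups left then differ in their mix of pairs. Without Ctcf-null replicate 1 and without control replicate 2, the log2 fold change was 0.40 and 0.55 for Fezf2, 0.17 and 0.24 for Tbr1, 0.54 and 0.58 for Sox5, -0.04 and -0.07 for Tle4, and -0.21 and -0.13 for Foxp2, each opposite in sign to its value with all libraries. Over the 4 such fits Crym ranged over 0.16 to 1.67 and Bcl11b over -1.62 to -0.75, and Crym, Bcl11b, Ldb2, Etv1 and Zfpm2 kept their sign. Leaving out a whole pair gives the fold change of the other pair, with no residual degrees of freedom and so no test. Bcl11b was then at -1.11 without replicate 1 and -1.26 without replicate 2, Fezf2 at -0.86 and -0.56, and Etv1 at -0.60 and -0.13, and Foxp2 changed sign (-0.04 without replicate 1). DESeq2 with the block called 832 genes, 3 deep-layer genes and 37 list genes, with Bcl11b, Fezf2 and Crym as the 3, and edgeR with upper-quartile scaling called 3 deep-layer genes and 2427 of the 22158 tested genes. The cause of these lower counts was not tested. Over the 9 alternatives that keep the block, Bcl11b (log2 fold change -1.18 to -1.08), Fezf2 (-0.73 to -0.62) and Crym (0.91 to 1.03) stayed called. Ldb2 lost its call in 4 of them (adjusted p 0.0512 in edgeR to 0.341 in DESeq2) and Etv1 in 2 (0.0827 with upper-quartile scaling and 0.247 in DESeq2). The 5 uncalled genes stayed uncalled and kept their direction in all 9. Rises made up 26.7% of the calls on the deposited scaling, 40.2% with TMM in edgeR and 56.0% with upper-quartile scaling. Depth limits Zfpm2 most, with 113 to 306 reads in a library.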
